A study of Mus musculus with 20 samples.

Results

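The genes described here are 9 genes of peroxisomal fatty acid oxidation and peroxisome growth, taken by symbol from a table of 34933 named mouse genes: Abcd3, Ehhadh, Hsd17b4, Acaa1a, Acaa1b, Acot8, Acot3, Crat and Pex11a. All 9 were in both the count and the TPM table, and all 9 passed the low-count filter that kept 12789 genes. The livers came from wild-type mice with diet-induced obesity, and polyadenylated RNA was sequenced. The 4 groups of 5 mice received vehicle, rosuvastatin, GGOH, or rosuvastatin and GGOH together, called the combination below. Rosuvastatin is a statin, an inhibitor of HMG-CoA reductase in the mevalonate pathway. GGOH is geranylgeraniol, an isoprenoid alcohol that cells can convert to the geranylgeranyl diphosphate made by that pathway. All mice were obese, so no lean liver serves as a reference, and the labels used here give no strain, sex, age, dose or duration. The labels number the mice within each group and do not say that a number marks a shared animal, litter or day.

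Peroxisomes shorten very long-chain and branched fatty acids, dicarboxylic acids and bile acid precursors, which mitochondria handle poorly. A transporter such as Abcd3 brings the acyl-CoA in, its oxidation releases hydrogen peroxide, and a bifunctional enzyme and a thiolase then split off acetyl-CoA. Thioesterases and carnitine acyltransferases release the shortened products for export. In rodent liver many of these genes are known targets of PPAR-alpha, the nuclear receptor that fatty acids and fibrates activate, and its activation makes peroxisomes grow and divide.

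The libraries held between 8548120 and 18373913 estimated counts, of which the 9 genes together took 0.170 to 0.363%. Hepatocyte markers were high in every library, with a summed level of 10 markers of 28380 to 85778 TPM (a scale relative to transcript length and library), and 4 kidney tubule markers summed to at most 0.0271 TPM. Mitochondrial transcripts took 27.9 and 29.2% of counts in combination mice 2 and 3 and at most 17.1% elsewhere. The correlation across genes of a library's expression deviation with transcript GC content was above 0 in all 10 libraries from mice given rosuvastatin, with group medians of 0.141 for rosuvastatin and 0.132 for the combination against -0.258 for vehicle and -0.247 for GGOH. Vehicle mouse 1 had the highest value (0.312), so results were also computed without this mouse and combination mice 2 and 3. In bulk liver, fewer cells of a type and less RNA per cell cannot be told apart, which holds for every level below.

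Per transcript length, Acaa1b was the most abundant of the 9, with a median of 623 TPM over 20 mice, and stood above Abcd3 (145 TPM) in 20 of 20 mice. Abcd3, Ehhadh (133 TPM) and Pex11a (109.8 TPM) were close, since Abcd3 exceeded Ehhadh in 13 of 20 mice and Ehhadh exceeded Pex11a in 13 of 20. Hsd17b4 followed at 91.8 TPM and Acaa1a at 67.3 TPM, with Hsd17b4 the higher in 18 of 20 mice. Acot3 (34.1 TPM) and Crat (32.6 TPM) were not ordered, with Acot3 the higher in 11 of 20 mice, and Acot8 had the lowest median at 21.1 TPM. These are levels over all groups and carry no test.

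**Figure D1:**
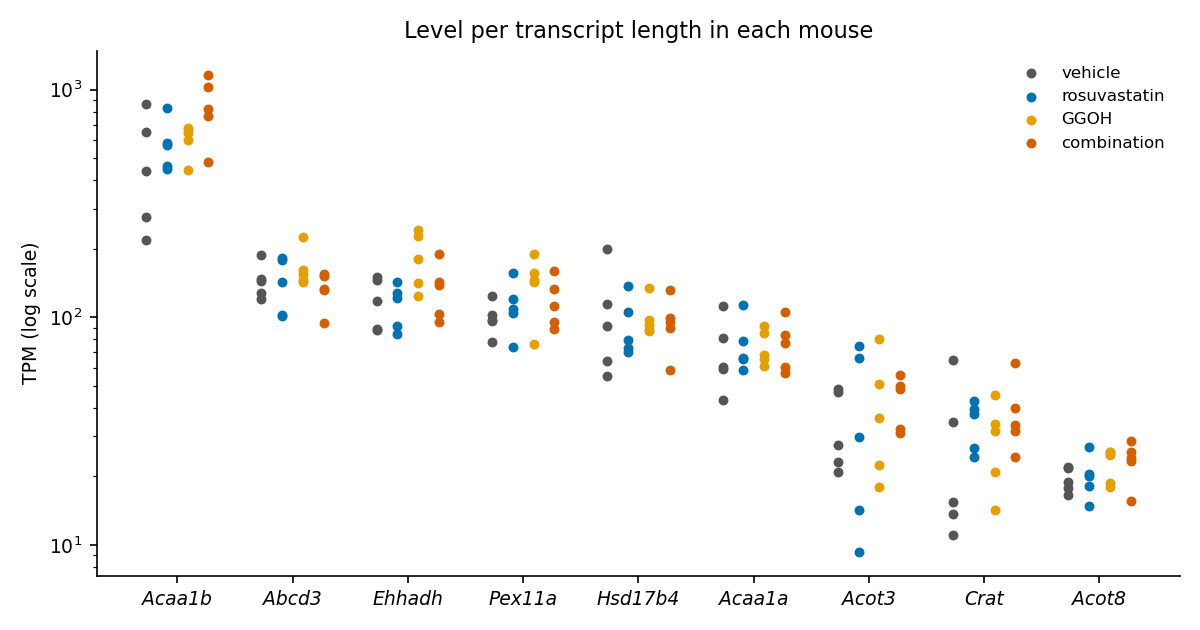
TPM (log scale) of each of the 9 genes in each of the 20 mice, coloured by group and ordered by median. Acaa1b lies above Abcd3 in 20 of 20 mice, and Acot3 spans the widest range, from 9.31 to 80.3 TPM.

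Import into the peroxisome was represented by Abcd3, a transporter of the peroxisomal membrane that carries acyl-CoAs and bile acid precursors (chromosome 3, 121758774 to 121815302, GRCm38). Its level in CPM (estimated counts relative to library size, scaled by TMM factors) was 409, 626, 412, 517 and 614 in the 5 vehicle mice and 366, 378, 357, 609 and 466 in the rosuvastatin mice. With GGOH it was 578, 444, 555, 762 and 491 CPM, and with the combination 365, 472, 441, 448 and 423 CPM. The combination mice lay close together, with a coefficient of variation of 9.38%, and 3 of them were below the lowest GGOH mouse. The groups overlapped in every comparison. Its log2 fold change was -0.40 ± 0.19 (SE) for the combination against GGOH (edgeR unadjusted p = 0.0483, adjusted p = 0.355), -0.24 ± 0.19 for rosuvastatin against vehicle and 0.13 ± 0.19 for GGOH against vehicle.

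Ehhadh encodes the L-bifunctional enzyme, which hydrates the enoyl-CoA and oxidises the product, and is a classical PPAR-alpha target (chromosome 16, 21761287 to 21787807). Its level was 299, 350.4, 291, 346 and 634 CPM with vehicle and 287, 278, 282, 371 and 336 CPM with rosuvastatin. GGOH mice had 766, 387, 548, 731 and 376 CPM, and combination mice 355, 299, 367, 424 and 467 CPM. All 5 GGOH mice were above 4 of the 5 vehicle mice, and vehicle mouse 5 lay among the GGOH mice. On TPM they were above 3 of the 5 vehicle mice, with vehicle mouse 1 at 151 TPM, vehicle mouse 5 at 146 TPM and the lowest GGOH mouse at 123 TPM. The mean was 384 ± 142 CPM (SD, n = 5) in the vehicle group, 311 ± 40.8 in the rosuvastatin group, 561 ± 184 in the GGOH group and 383 ± 65.2 in the combination group. GGOH against vehicle gave a log2 fold change of 0.55 ± 0.23 (95% confidence interval 0.06 to 1.03; edgeR unadjusted p = 0.0293, adjusted p = 1), and leaving out 1 mouse at a time gave 0.41 to 0.79. The combination against GGOH gave -0.55 ± 0.23 (unadjusted p = 0.0277, adjusted p = 0.348). The combination and vehicle differed by -0.01 ± 0.23, with an interval of -0.49 to 0.48.

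Hsd17b4 encodes the D-bifunctional enzyme, which does the same steps with the opposite stereochemistry and is the one needed for branched fatty acids and bile acid precursors. Vehicle mice had 349, 304, 247, 189 and 243 CPM and rosuvastatin mice 219, 200.1, 267, 194 and 216 CPM. GGOH mice had 270.0, 208, 259, 347 and 233 CPM and combination mice 178, 243, 304, 247 and 210.4 CPM. The rosuvastatin mice lay within the range of the vehicle mice, and the 4 groups overlapped. Its log2 fold change was -0.28 ± 0.18 with rosuvastatin (edgeR unadjusted p = 0.143) and -0.02 ± 0.18 with GGOH, each against vehicle.

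The last step of each round is made by 3-ketoacyl-CoA thiolases, which mice have in 2 close copies, Acaa1a and Acaa1b, both on chromosome 9 (119339676 to 119350299 and 119148023 to 119157093). Acaa1b was at 905, 456, 847, 566 and 1007 CPM with vehicle and 742, 798, 686, 898 and 1025 CPM with rosuvastatin. GGOH mice had 786, 876, 1093, 1039 and 1069 CPM, and combination mice 855, 1233, 1559, 1293 and 1339.6 CPM. In CPM, combination mice 2 to 5 were above every vehicle, rosuvastatin and GGOH mouse, and combination mouse 1 lay among them. On TPM this held for combination mice 3 and 5 (1163 and 1025 TPM), while mice 2 and 4 (766 and 819 TPM) were below vehicle mouse 1 (864 TPM) and rosuvastatin mouse 5 (829 TPM). The means were 756 ± 235 (SD, n = 5), 829.8 ± 134, 972 ± 134 and 1256 ± 256 CPM for the vehicle, rosuvastatin, GGOH and combination groups. The combination against vehicle gave a log2 fold change of 0.73 ± 0.21, a ratio of 1.66 (95% confidence interval of the log2 value 0.29 to 1.18; edgeR unadjusted p = 0.00262, adjusted p = 0.817). That p ranked 26 among the 12789 genes. The highest Acaa1b mouse, combination mouse 3, had the smallest library (8548120 estimated counts), and mitochondrial transcripts took 29.2% of its counts. The combination against rosuvastatin gave 0.60 ± 0.21 (unadjusted p = 0.0109, adjusted p = 1).

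Acaa1a stayed within 90.9 to 162 CPM in all 20 mice, the narrowest range of the 9 genes (a ratio of 1.79 between the highest and the lowest mouse). Vehicle mice had 129.8, 138, 123, 103 and 149 CPM and rosuvastatin mice 145, 123, 145, 122 and 90.9 CPM. GGOH mice had 162, 106, 123, 159.9 and 111 CPM and combination mice 129, 116, 149, 137 and 153 CPM. The groups overlapped almost completely. Its log2 fold changes lay between -0.04 ± 0.16 for rosuvastatin against vehicle and 0.13 ± 0.16 for the combination against rosuvastatin. Of the distinct 31-base words in the annotated Acaa1b transcripts, 40% also occur in Acaa1a transcripts. Of those of Acaa1a, 16.9% occur in Acaa1b transcripts. Over all other genes the shares are 50.1% for Acaa1b, with 10% in Dlec1, and 23.4% for Acaa1a, with 5.07% in Myd88. The division of reads between the copies, and between them and such genes, is therefore partly an estimate.

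The windows before the start sites of these thiolases and of Ehhadh are shown because the results above turn on Acaa1b and Ehhadh, and Acaa1a is the close copy of Acaa1b. Each is the 250 bases before the RefSeq start (GRCm38.p6), written 5′ to 3′ on the gene's strand. Capitals mark the CCAAT box (CCAAT) and the GC box (GGGCGG) on either strand, which were picked for marking after the matches of 5 motifs had been seen.
Acaa1b, chr9:119157094-119157343, minus strand: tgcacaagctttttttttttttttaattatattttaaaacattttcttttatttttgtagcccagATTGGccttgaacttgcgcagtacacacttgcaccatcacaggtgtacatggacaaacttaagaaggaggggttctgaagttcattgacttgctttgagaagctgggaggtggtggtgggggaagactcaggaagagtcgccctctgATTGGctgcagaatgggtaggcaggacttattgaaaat
Acaa1a, chr9:119341044-119341293, plus strand: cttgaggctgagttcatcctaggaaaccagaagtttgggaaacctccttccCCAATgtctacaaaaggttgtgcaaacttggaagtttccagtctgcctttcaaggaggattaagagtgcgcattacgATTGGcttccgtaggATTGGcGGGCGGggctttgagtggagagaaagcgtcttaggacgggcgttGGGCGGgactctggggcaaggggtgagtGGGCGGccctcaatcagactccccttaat
Ehhadh, chr16:21787835-21788084, minus strand: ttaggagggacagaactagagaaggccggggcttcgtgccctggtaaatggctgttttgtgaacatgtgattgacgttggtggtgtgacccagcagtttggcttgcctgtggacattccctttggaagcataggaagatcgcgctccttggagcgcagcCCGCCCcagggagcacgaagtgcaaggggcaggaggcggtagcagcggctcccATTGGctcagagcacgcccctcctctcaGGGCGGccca

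The Acaa1a window lies inside the gene's extent given above, since another annotated transcript starts further upstream, so the thiolase windows need not be corresponding positions. The Acaa1a window holds 3 GC boxes and 3 CCAAT boxes, the Acaa1b window 2 CCAAT boxes and no GC box, and the Ehhadh window 2 GC boxes and 1 CCAAT box. A CCAAT box occurred in 33.8% and a GC box in 32.7% of all 32851 RefSeq windows of this length. The single site bound by nuclear receptors (AGGTCA, either strand) was in none of the windows of the 7 genes matched in RefSeq, against 14% of all windows. A direct repeat of that site 1 base apart, the form PPAR-alpha binds, was also searched with up to 2 mismatches, and was in none of the 7 genes' windows and in 3.24% of all. The TATA box (TATAAA) was in none of them and in 12.4% of all. The search says only which letters these 250 bases hold.

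Pex11a encodes a membrane protein that elongates peroxisomes before they divide (chromosome 7, 79735957 to 79743131). Vehicle mice had 133, 273, 164, 208 and 378 CPM and rosuvastatin mice 259, 170.2, 166, 216 and 246 CPM. GGOH mice had 179, 265, 330.1, 404 and 299 CPM and combination mice 198, 228, 282, 271 and 159 CPM. The vehicle group reached beyond both ends of the rosuvastatin and combination groups, and its coefficient of variation was 42.2%. Its lowest mouse was below every GGOH mouse, and GGOH mouse 4 (404 CPM) was above its highest (378 CPM). The log2 fold change was 0.36 ± 0.26 for GGOH against vehicle (edgeR unadjusted p = 0.183) and -0.38 ± 0.26 for the combination against GGOH (unadjusted p = 0.158).

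Crat encodes carnitine acetyltransferase, which moves acetyl groups onto carnitine in peroxisomes and mitochondria (chromosome 2, 30400471 to 30415813). Vehicle mice had 104, 39.6, 70.5, 52.3 and 45.5 CPM and rosuvastatin mice 81.0, 59.8, 77.3, 74.3 and 87.1 CPM. GGOH mice had 40.6, 67.1, 88.6, 57.9 and 103 CPM and combination mice 85.4, 98.3, 113, 81.0 and 54.3 CPM. Combination mice were mostly at the upper end, and vehicle mouse 1 was as high as they were. The combination against vehicle gave a log2 fold change of 0.47 ± 0.26 (edgeR unadjusted p = 0.0887, adjusted p = 0.817). Of its 31-base words, 6.01% occur in transcripts of other genes.

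The thioesterases free fatty acids from CoA. Acot8, the broad-specificity peroxisomal thioesterase (chromosome 2, 164792765 to 164804882), ran from 11.5 CPM in vehicle mouse 1 to 23.1 CPM in vehicle mouse 5, so the vehicle group alone spanned all 20 mice. Its log2 fold changes lay between -0.17 and 0.14 in the 5 comparisons of groups, and 10.8% of its 31-base words are shared with the overlapping gene Snx21. Acot3, a long-chain thioesterase (chromosome 12, 84052144 to 84060402), was the most variable of the 9, from 14.1 CPM in rosuvastatin mouse 3 to 189 CPM in GGOH mouse 3, a ratio of 13.5. Rosuvastatin mice alone had 69.3, 35.7, 14.1, 154 and 134 CPM. With an SE of 0.49, its log2 fold changes of -0.07 to 0.24 were not resolved from 0, and 25.2% of its words are shared with other genes, among them Acot5.

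**Figure D2:**
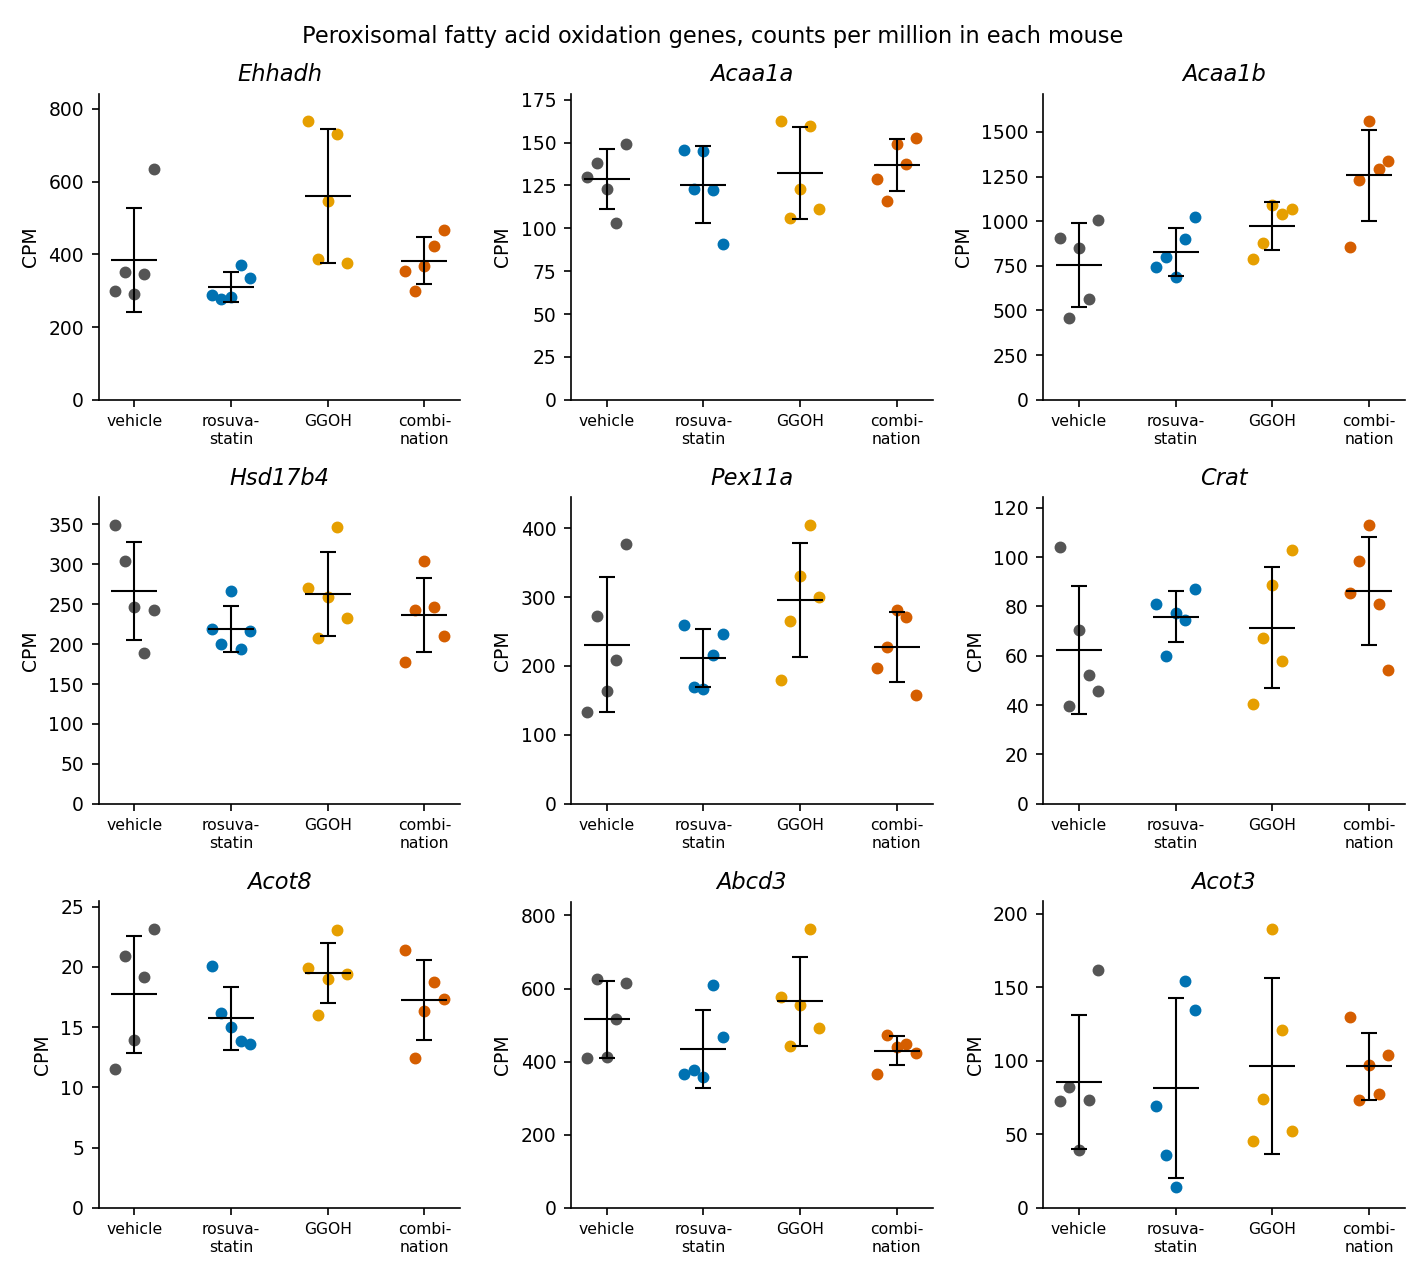
CPM of each gene in each mouse (points), with the group mean and SD (bars, n = 5), one panel per gene. Acaa1b is at 1233 CPM or more in 4 combination mice and at most 1093 CPM in the mice of the other groups, Ehhadh is spread widest with GGOH, and Acaa1a is nearly level.

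Rosuvastatin was compared with vehicle to ask what the statin does in obese liver. Of the 9 genes, 7 had a negative log2 fold change, with a median of -0.13, from -0.30 ± 0.23 for Ehhadh to 0.28 ± 0.26 for Crat. That split turned on vehicle mouse 5 and on the scale: with that mouse left out, 5 of the 9 were positive and Ehhadh was at -0.031, 5 of the 9 were positive with limma on log2(TPM + 1), and 1 of the 9 with GC content and length offsets. The median over all 12789 genes was -0.02, and 47.3% of them were positive. By edgeR, 0 of the 9 had an unadjusted p under 0.05, against 3.69% of all genes, and 0 had groups that did not overlap, against 0.516%. No gene passed after adjustment, so 0% of all genes was called, in this and each other comparison. The 24 other genes of peroxisomal fatty acid metabolism had a median of -0.14 with 18 negative and 0 at an unadjusted p under 0.05. Among 19 other peroxisomal enzymes, 14 were negative. Catalase (Cat), which removes hydrogen peroxide, was at -0.48 ± 0.19 (unadjusted p = 0.0212), and the peroxisomal protease Lonp2 was at -0.37 ± 0.14 (unadjusted p = 0.0182) among 20 genes of biogenesis and division, of which 10 were negative. The PPAR-alpha list held 28 genes: Ppara, the partner and cofactor genes Rxra, Ppargc1a and Ncor1, and genes taken as targets. Of the 28, 17 were positive, with Ppara at 0.01 ± 0.26, Cyp4a10 at 0.11 ± 0.23 and Cyp4a14 at 0.01 ± 0.21. In this list, 3 genes had an unadjusted p under 0.05. Cyp4a12b was at 2.86 ± 0.90 and Cyp4a12a at 1.79 ± 0.57 (unadjusted p = 0.00451 and 0.00480), fatty acid hydroxylases of similar sequence between which reads may be divided uncertainly, and the coactivator gene Ppargc1a was at -0.61 ± 0.24 (unadjusted p = 0.0181). Beside these values, 8 of 9 Kupffer cell markers (median 0.23), 5 of 5 lipid-associated macrophage markers (0.33) and 4 of 5 lymphocyte markers (0.37) were positive and 5 of 7 stellate cell markers negative (-0.14), with 0 at an unadjusted p under 0.05. Their part in the result was not tested.

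GGOH was compared with vehicle to ask what the isoprenoid does without the statin. Here 8 of the 9 genes had a positive log2 fold change, with a median of 0.17, while 46.9% of all genes were positive with a median of -0.02. Ehhadh was the 1 gene of the 9 at an unadjusted edgeR p under 0.05, against 2.86% of all genes, and 0 had groups that did not overlap, against 0.43%. Acaa1b was at 0.36 ± 0.21 (unadjusted p = 0.104). Of the 24 other fatty acid genes, 14 were positive with a median of 0.05. The PPAR-alpha list had 19 of 28 positive and a median of 0.17. In it, the fasting hormone gene Fgf21 was at 1.18 ± 0.42 (unadjusted p = 0.0106). The lipid droplet gene Plin2 was at 0.40 ± 0.19 with every GGOH mouse above every vehicle mouse, and Acot2 was at 0.51 ± 0.26. Cyp4a14 was at 0.28 ± 0.21, Cyp4a10 at 0.11 ± 0.23 and Ppara at -0.27 ± 0.26. Beside these values, 9 of 9 Kupffer cell markers and 3 of 3 neutrophil markers tested were positive and 9 of 10 hepatocyte markers negative, with medians of 0.31, 0.70 and -0.17. Lipid-associated macrophage markers were positive in 5 of 5 (0.36) and lymphocyte markers in 4 of 5 (0.42). Sinusoidal endothelium markers were negative in 6 of 6 (-0.098) and stellate cell markers in 6 of 7 (-0.11). In any of these lists, 0 had an unadjusted p under 0.05. The summed neutrophil markers ran from 6.63 to 58.8 TPM with vehicle and from 15.1 to 103 TPM with GGOH. Their part in the result was not tested.

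GGOH added to the statin was measured by the combination against rosuvastatin. Again 8 of the 9 genes were positive, with a median of 0.13 against 0.01 over all genes, of which 52.6% were positive. Without combination mice 2 and 3 and vehicle mouse 1, 5 of the 9 were positive. Acaa1b was the 1 gene of the 9 at an unadjusted edgeR p under 0.05, against 1.69% of all genes, and 0 had groups that did not overlap, against 0.266%. Ehhadh was at 0.30 ± 0.23 and Abcd3 at -0.02 ± 0.19. In the 4 lists of other peroxisomal and PPAR-alpha genes, 0 had an unadjusted p under 0.05, and the medians lay between -0.06 and 0.06. Cyp4a10 was at 0.29 ± 0.23 and Cyp4a14 at 0.31 ± 0.21. All 9 Kupffer cell markers (median -0.18), 5 of 5 lipid-associated macrophage markers (-0.27) and 9 of 10 hepatocyte markers (-0.11) were negative, 5 of 5 lymphocyte markers were positive (0.47), and 1 of 4 cholangiocyte markers was lower at an unadjusted p under 0.05. Their part was not tested.

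The statin added to GGOH was measured by the combination against GGOH. Ehhadh and Abcd3 were lower at an unadjusted edgeR p under 0.05, which is 2 of the 9 genes beside 14% of all genes in this comparison. Of the 9, 3 were positive (Acaa1b 0.37 ± 0.21, Crat 0.27 ± 0.26, Acaa1a 0.05 ± 0.16) and 6 negative, with a median of -0.15 against 0.01 over all genes, of which 50.9% were positive (on log2(TPM + 1), 5 of the 9 were positive), and 0 had groups that did not overlap, against 2.26%. Other peroxisomal genes were also mostly negative: 17 of 24 fatty acid genes, 17 of 19 other enzymes and 13 of 20 genes of biogenesis and division, with medians of -0.22, -0.25 and -0.04. Crot, the carnitine octanoyltransferase that exports shortened acyl groups, was at -0.69 ± 0.29 (unadjusted p = 0.0293), and Baat, which joins bile acids to taurine and glycine, at -0.62 ± 0.26 (unadjusted p = 0.0282). Pex3, needed to insert membrane proteins, was at -0.44 ± 0.20 with every combination mouse below every GGOH mouse, and Pex6, part of the receptor export complex, at 0.68 ± 0.26. The PPAR-alpha list was mixed, with 12 of 28 positive and a median of -0.11. Its fatty acid hydroxylase genes Cyp4a32 and Cyp4a31 were at 0.62 ± 0.21 and 0.66 ± 0.26 (unadjusted p = 0.00823 and 0.0188), the latter with every combination mouse above every GGOH mouse, Ppara was at 0.35 ± 0.26, and Acadl, a mitochondrial acyl-CoA dehydrogenase, was at -0.54 ± 0.21 (unadjusted p = 0.0169). All of these had adjusted p of at least 0.348. Beside them, 3 of 3 neutrophil markers were negative (median -1.35, with 2 at an unadjusted p under 0.05) and 9 of 9 Kupffer cell markers were negative (median -0.34). Lipid-associated macrophage markers were negative in 4 of 5 (-0.39). Of the sinusoidal endothelium markers 5 of 6 were positive (0.17), of the stellate cell markers 5 of 7 negative (-0.21), and of the lymphocyte markers 3 of 5 positive (0.10). Each of these 3 lists had 1 marker at an unadjusted p under 0.05. Their part was not tested.

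For both compounds against vehicle, Acaa1b was the 1 gene of the 9 at an unadjusted edgeR p under 0.05, against 5.5% of all genes, and 0 had groups that did not overlap, against 0.758%. The 9 split into 4 positive and 5 negative, with a median of -0.01 against 0.01 over all genes. The split moved both ways with the setting: 7 of the 9 were positive without vehicle mouse 5 or with limma on log2(TPM + 1), and 2 of the 9 with GC content and length offsets. Of the 24 other fatty acid genes 19 were negative (median -0.10), among them Pecr, a trans-enoyl-CoA reductase, at -0.43 ± 0.18, Nudt7, a CoA diphosphatase, at -0.60 ± 0.28 and Baat at -0.56 ± 0.26. Cat was at -0.45 ± 0.19 and Lonp2 at -0.37 ± 0.14. In the PPAR-alpha list 18 of 28 were positive, with Cyp4a32 at 0.57 ± 0.21 (unadjusted p = 0.0144), Cyp4a10 at 0.40 ± 0.23 and Cyp4a14 at 0.32 ± 0.21. Beside these values, 7 of 7 stellate cell markers (median -0.32, with 1 at an unadjusted p under 0.05), 4 of 4 cholangiocyte markers (-0.52) and 9 of 10 hepatocyte markers (-0.17) were negative. All 5 lymphocyte markers were positive (0.56), with 1 at an unadjusted p under 0.05 and 1 whose groups did not overlap. Their part was not tested. Vehicle enters 3 of the 5 comparisons and the combination 3, so these comparisons share mice and are not independent of each other.

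The interaction asks whether GGOH changes these genes differently with and without the statin. By edgeR, 0 of the 9 had an unadjusted p under 0.05, against 2.89% of all genes. The interaction ran from -0.25 ± 0.37 for Pex11a and -0.25 ± 0.33 for Ehhadh to 0.24 ± 0.30 for Acaa1b, with intervals of -0.93 to 0.44 for Ehhadh and -0.39 to 0.86 for Acaa1b. A difference between the settings was therefore not shown for any of the 9, though the intervals are wide. In the PPAR-alpha list, 3 genes had an unadjusted p under 0.05: Plin2 at -0.66 ± 0.27, Fgf21 at -1.33 ± 0.59 and Cyp4a12b at -2.53 ± 1.21 (unadjusted p = 0.0230, 0.0342 and 0.0486; adjusted p = 0.999 for each).

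**Figure D3:**
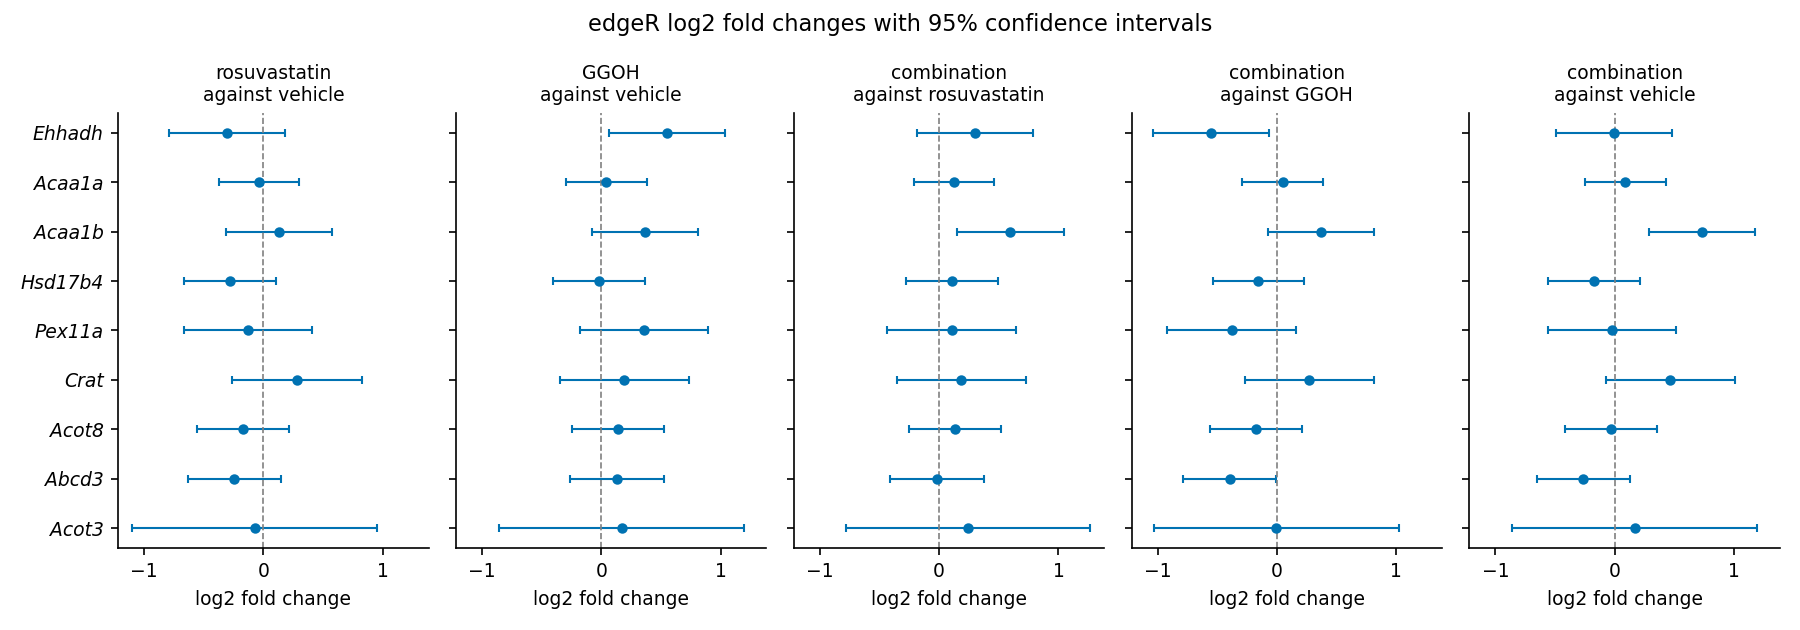
edgeR log2 fold changes (points) with 95% confidence intervals (bars) of the 9 genes in the 5 comparisons of groups. Intervals exclude 0 for Ehhadh in 2 panels, for Acaa1b in 2 and for Abcd3 in 1, and after adjustment over 12789 genes none passed.

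The ratios of these enzymes within each mouse, which do not depend on the library scale, were examined after the values were seen. All 4 ratios that were examined are given: Acaa1b to Acaa1a, and Ehhadh to Acaa1b, to Abcd3 and to Hsd17b4. Each was tested in the 5 comparisons by two-sided exact permutation of 252 assignments, and p-values were adjusted over these 20 tests. None passed, on counts or on TPM, and the groups overlapped in every one.

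The estimated counts of Acaa1b exceeded those of Acaa1a in all 20 mice, by 3.30 to 6.97 times in the vehicle group, 4.72 to 11.3 in the rosuvastatin group, 4.84 to 9.59 in the GGOH group and 6.63 to 10.6 in the combination group. The geometric means were 5.67, 6.64, 7.40 and 9.05. In 4 of the 5 combination mice the ratio was above that of every vehicle mouse, and the log2 ratio differed by 0.675 between these groups (exact permutation p = 0.0317, adjusted p = 0.317; on TPM 0.774, p = 0.0159, adjusted p = 0.159). Ehhadh relative to Acaa1b had geometric means of 0.507, 0.376, 0.556 and 0.307 in the same order of groups. The combination against GGOH differed by -0.859 (exact permutation p = 0.0159, adjusted p = 0.317; on TPM -0.890, adjusted p = 0.159). Omitting combination mice 2 and 3 and vehicle mouse 1 gave 0.603 and -0.619 on counts (exact permutation p = 0.171 and 0.0714, unadjusted). With fewer mice there are fewer assignments, so the smallest p these tests can reach is larger. Their p-values cannot be set against those from all mice. The remaining ratios were flatter: the smallest p was 0.0714 for Ehhadh to Abcd3 (GGOH against vehicle, 0.412; exact permutation, adjusted p = 0.329) and 0.119 for Ehhadh to Hsd17b4 (the same comparison, 0.554; adjusted p = 0.329).

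**Figure D4:**
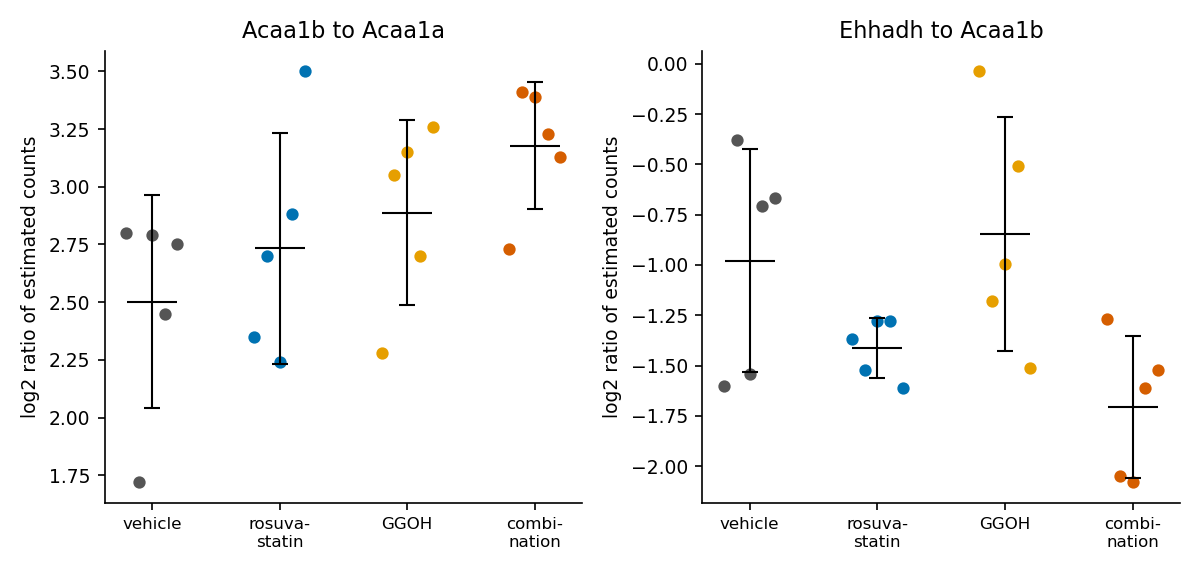
Log2 ratio of estimated counts in each mouse (points) with the group mean and SD (bars, n = 5), for 2 of the 4 ratios examined, Acaa1b to Acaa1a and Ehhadh to Acaa1b. The combination has the highest mean in the first panel and the lowest in the second, with overlap between groups.

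To see which of the 9 varied together beyond the treatment, log2 CPM values were centred on their group means and correlated over the 20 mice. Of the 36 pairs, 26 were positive, with a median r of 0.200 and a range of -0.607 (Ehhadh and Crat) to 0.665 (Ehhadh and Abcd3). For Ehhadh, 12 relations were tested with 100000 permutations within groups. That with Abcd3 passed (r = 0.665, permutation p = 0.00130, adjusted p = 0.0156; Spearman's rho = 0.672, permutation p = 0.00309, adjusted p = 0.0371), and r was 0.698 without vehicle mouse 5 and GGOH mouse 1, the mice farthest from the median of Ehhadh. The adjusted call was lost without vehicle mouse 1 or 3, rosuvastatin mouse 4 or GGOH mouse 2, with r between 0.620 and 0.671 there. Abcd3 ranked 221 among all genes by its r with Ehhadh. No relation passed for Ehhadh with Acaa1b (r = 0.195, rho = 0.137, adjusted permutation p = 0.644 and 0.689) or with Cyp4a10 (r = 0.0749), Cyp4a14 (r = 0.394) or Ppara (r = -0.409). Some of these turned on the scale: on log2(TPM + 1), r was 0.641 for Ppara, and that of Crat went from -0.607 to -0.0438. On that scale r was 0.555 for Acaa1b and 0.702 for Acaa1a, which passed there but not on log2 CPM (r = 0.557).

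Technical measures of the libraries moved with several of the genes, in 18 relations computed after the values were seen. With the GC correlation of the library, r was -0.576 for Ehhadh, -0.602 for Abcd3, -0.686 for Acot8 and 0.671 for Crat (adjusted permutation p = 0.0822, 0.0604, 0.0441 and 0.0441). With the mitochondrial share, r was -0.502 for Ehhadh and 0.522 for Crat (adjusted permutation p = 0.0441 for each). By Spearman's rho none of the 18 passed, with a smallest adjusted permutation p of 0.0575. Without vehicle mouse 1 and GGOH mouse 5, the farthest in the GC correlation, r was 0.435 for Crat and -0.637 for Acot8. Given the GC correlation, the partial r of Ehhadh was 0.575 with Acaa1a, 0.55 with Acaa1b, 0.488 with Abcd3 and 0.348 with Hsd17b4. It was 0.243 with Acot3, 0.193 with Acot8, 0.0485 with Pex11a and -0.364 with Crat, so Abcd3 did not rank first there. For Acaa1b r was 0.382 with the GC correlation and 0.201 with the mitochondrial share (adjusted permutation p = 0.405 and 0.609). With offsets for GC content and length, the Acaa1b log2 fold change for the combination against vehicle was 0.51 in place of 0.73.

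**Figure D5:**
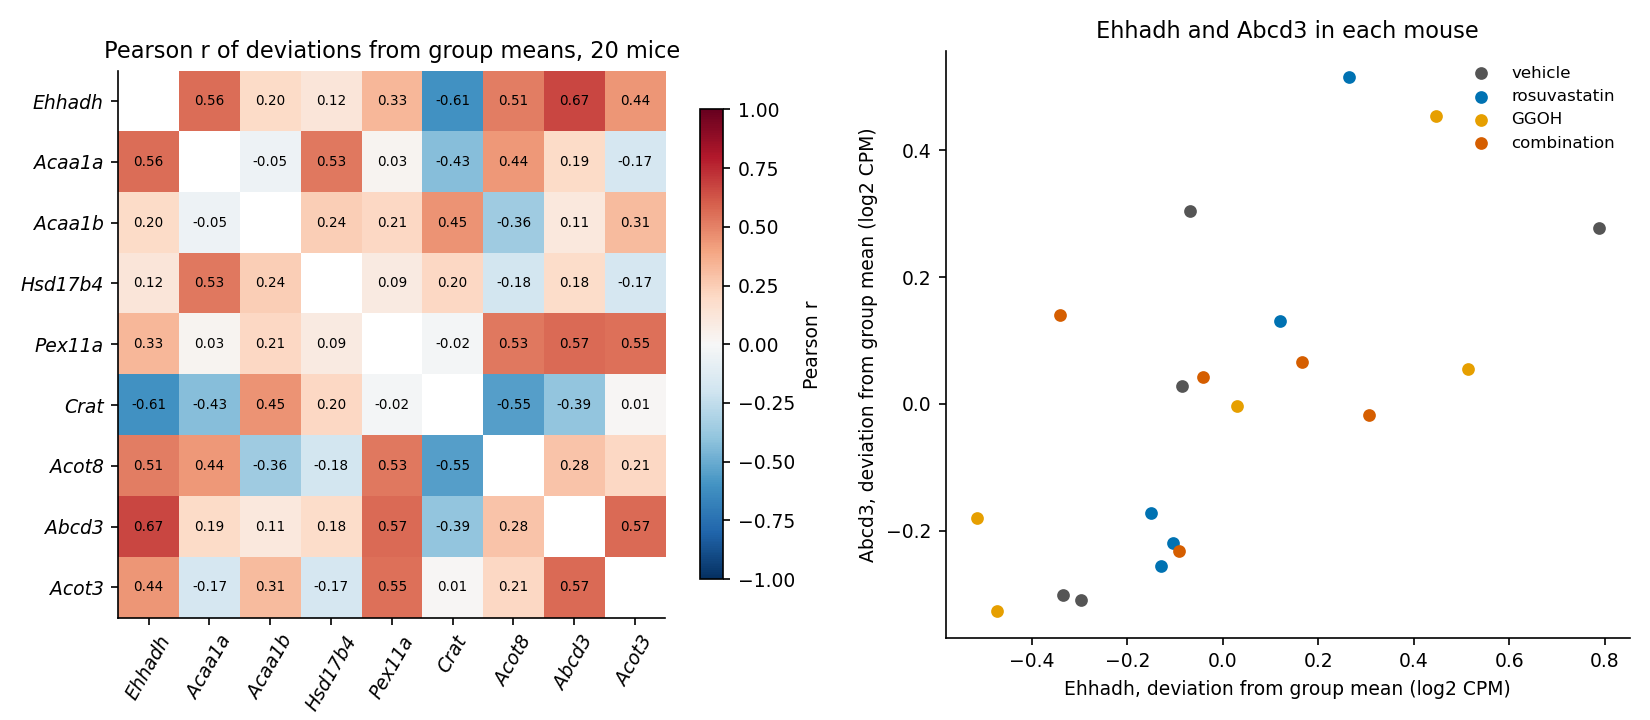
Left, Pearson r between each pair of genes over 20 mice after centring log2 CPM on group means (colour scale from -1 to 1). Right, Ehhadh against Abcd3 in each mouse as deviations from the group mean in log2 CPM, where r = 0.665 and vehicle mouse 5 is farthest to the right.

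Likeness was measured as the Pearson r, over the 20 mice, of each named gene's group-centred log2 CPM with the mean of the 9 scaled genes. Among 6840 genes, those most like the mean were Hsdl2 (r = 0.858), a peroxisomal short-chain dehydrogenase, Ces1d (0.784), a liver carboxylesterase, Slc22a5 (0.764), the plasma membrane carnitine transporter, Clcn4 (0.742), a chloride and proton exchanger, and Aldh1a1 (0.736), a retinaldehyde dehydrogenase. Of the 9 genes themselves, Pex11a (0.731), Ehhadh (0.714) and Abcd3 (0.706) lay closest to their mean, to which each contributes, and Crat did not follow it (-0.0732). These are descriptions over mice that share library effects, with no test.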

How the data were processed

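RNA of 20 mouse livers was measured by poly(A) RNA-seq with paired reads on a NovaSeq instrument, per the labels' protocols. The submitters' processing notes name bcl2fastq 2.19, kallisto 0.44.0, DESeq2 and GRCm38. The authors deposited estimated counts and TPM per gene. The estimated counts deposited were rounded to whole numbers here, and 1 entry without a gene name, with 0.00801 to 0.0157% of counts, was left out. Estimated counts divide reads among similar transcripts, and TPM deposited by the authors are scaled per transcript length and library, so the scales can differ in direction.

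Groups were compared with the quasi-likelihood test of edgeR 4.0.16 (R 4.3.3), using TMM factors, the default filter by group, 1 model of 4 groups over 20 libraries (16 residual degrees of freedom, common biological coefficient of variation 0.300) and Benjamini-Hochberg adjustment over 12789 genes at 0.05. SE values come from the F statistic. Correlations used log2 CPM with a prior count of 2 and 100000 permutations within groups. The code was tested on simulated data. Alternatives were RLE factors, DESeq2 1.42.0, no filter, a filter at 1 CPM in 5 libraries, fits to the compared groups alone, replicate number as a block, limma 3.58.1 on log2 TPM with a pseudocount of 1 or 0.1, weights for sample quality, offsets for GC content and length, omission of vehicle mouse 1 and combination mice 2 and 3, and omission of each library. The 4 ratios (20 tests on each scale), the partial correlations and the relations with technical measures were added after the values were seen.

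The 9 genes and all gene lists were chosen with earlier results of these data known. Named genes are the 9, up to 3 per list and comparison with the smallest p, and Ppara, Cyp4a10 and Cyp4a14; 1 further gene of this rule stayed in the fits, counts and adjustments and is not reported here. Positions are from GENCODE M21 (GRCm38) and sequences from RefSeq (GRCm38.p6), where 7 of the 9 genes matched. Nothing in the labels says how mice were housed or RNA batched, so p-values measure the spread between these mice.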

Additional observations from a re-analysis of the deposited data

Results flagged for a closer look

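On the CPM scale, Ehhadh in vehicle mouse 5 stood at 9.31 log2 CPM (634 CPM), far from the other 4 vehicle mice at 291 to 350.4 CPM. The gap to the nearest mouse took up most of the group's range. Of 36 groups of 5 values examined (9 genes in 4 groups), this was the 1 with such a gap, and chance alone would give about 1.8. On TPM it did not stand apart, at 146 TPM against 151 TPM in vehicle mouse 1. In CPM the same mouse had the highest Pex11a (378), Acot8 (23.1), Acot3 (162), Acaa1a (149) and Acaa1b (1007) of the vehicle group. On TPM it was highest for Pex11a alone of these (124 TPM), with Acaa1b at 439 TPM against 864 TPM in vehicle mouse 1. Its TMM factor, by which CPM values are divided, was 0.761, the lowest of the 20 libraries, and the part of this factor was not tested. Without it, the Ehhadh log2 fold change was 0.79 in place of 0.55 for GGOH against vehicle, and 0.25 in place of -0.01 for the combination against vehicle. Its mitochondrial share of counts was 11.9% and its GC correlation -0.258, both within the range of the other libraries.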

How the results depend on the processing

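None of the 9 genes passed the adjusted threshold under any alternative run. Over all genes, where edgeR called 0 in each comparison, DESeq2 called 4 for rosuvastatin against vehicle, 1 for GGOH against vehicle, 2 for the combination against rosuvastatin and 4 for the combination against vehicle. For these last comparisons in turn, omitting the filter called 1 and 1, limma on log2(TPM + 1) 1 and 1, limma on log2(TPM + 0.1) 0 and 1, GC content and length offsets 1 and 0, and leaving out single mice 0 to 1 in each. The relations of Ehhadh that passed numbered 1, but 3 on log2(TPM + 1) and 0 to 2 when single mice were left out.

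Several small log2 fold changes took the other sign, and the cause was not tested. With GC content and length offsets these were Acaa1b -0.039 for rosuvastatin against vehicle, Acaa1a -0.26 and Hsd17b4 0.015 for the combination against GGOH, and Acaa1a -0.16 and Acot3 -0.050 for the combination against vehicle. On log2(TPM + 1), with log2(TPM + 0.1) in brackets, rosuvastatin against vehicle gave Acaa1a 0.13 (0.14), Acot8 0.031 (0.032) and Pex11a 0.15 (0.15), and GGOH against vehicle gave Hsd17b4 0.061 (0.062). The combination against GGOH gave Acot3 0.22 (0.23) and Acot8 0.051 (0.053), and against vehicle Acot8 0.25 (0.26), Ehhadh 0.17 (0.17) and Pex11a 0.22 (0.22). On these TPM scales the median of all genes was 0.11 (0.18) for rosuvastatin against vehicle, where edgeR gave -0.0168. It was 0.084 (0.14) for the combination against vehicle, where edgeR gave 0.0059. For GGOH against vehicle it was 0.039 (0.076), and for the combination 0.044 (0.068) against GGOH and -0.036 (-0.047) against rosuvastatin. Without a filter, values were Acaa1a 0.0041 (rosuvastatin against vehicle), Hsd17b4 0.011 (GGOH against vehicle) and Ehhadh 0.020 (combination against vehicle). Sample quality weights gave Acot8 -0.035 and Hsd17b4 0.15 (GGOH against vehicle), Ehhadh 0.0010 (combination against vehicle) and an Acaa1b interaction of -0.13. Omitting vehicle mouse 1 and combination mice 2 and 3 gave Hsd17b4 0.12 (GGOH against vehicle), Crat -0.044, Hsd17b4 -0.050 and Pex11a -0.016 (combination against rosuvastatin), Acot3 0.10 (combination against GGOH), and Acot8 0.010 and Ehhadh 0.050 (combination against vehicle). On log2(TPM + 1), r was 0.641 for Ppara with Ehhadh.

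Leaving out single mice, rosuvastatin against vehicle ran from -0.097 to 0.091 for Acaa1a, -0.44 to 0.30 for Acot3 and -0.25 to 0.14 for Pex11a. GGOH against vehicle ran from -0.042 to 0.12 for Acaa1a, -0.23 to 0.52 for Acot3 and -0.14 to 0.12 for Hsd17b4. The combination against rosuvastatin ran from -0.098 to 0.13 for Abcd3, -0.047 to 0.60 for Acot3 and -0.0047 to 0.17 for Hsd17b4, and against GGOH from -0.024 to 0.13 for Acaa1a and -0.18 to 0.39 for Acot3. The combination against vehicle ran from -0.011 to 0.54 for Acot3, -0.14 to 0.088 for Acot8, -0.089 to 0.25 for Ehhadh and -0.16 to 0.23 for Pex11a. For relations with Ehhadh, r ran from -0.061 to 0.33 for Acaa1b, -0.12 to 0.17 for Cyp4a10 and -0.030 to 0.24 for Hsd17b4.

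The mouse numbers were not treated as pairs. Across groups, 13 of 30 same-numbered pairs correlated above 0.1 (median 0.056), beside 47 of 120 pairs with different numbers (median 0.0222). Of 20 mice, 5 correlated best with their own number. Such counts cannot show whether a number marks a shared litter or day. With the replicate block, 0 genes were called in each of the 6 contrasts, and Abcd3 was at 0.0065 for the combination against rosuvastatin and Ehhadh at 0.0021 and Pex11a at 0.023 for the combination against vehicle.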
